A study of Mus musculus with 8 samples.

Results

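The interleukin 1 and Tnf cytokine system was described here through 10 genes chosen by name: Il1a, Il1b, Il1rn, Il1r1, Il1rap, Tnf, Tnfrsf1a, Tnfrsf1b, Il6 and Il18. All 10 were among the 18193 genes measured. Expression was read on 8 Affymetrix Mouse Expression Array 430 2.0 arrays, 1 per mouse, from bone marrow cells sorted for low lineage markers, Sca1 and high cKit (LSK cells), the compartment of haematopoietic stem cells and early multipotent progenitors. The 4 wild type mice and the 4 mutant mice were of strain C57BL/6, and the mutants carried 1 copy of JAK2V617F (heterozygous), a constitutively active Jak2 kinase typical of myeloproliferative neoplasms. The sources used here give neither age, sex and disease stage of the mice nor how the mutant allele is switched on. The comparison asked how that allele, present in a single copy, altered transcription in stem and progenitor cells.

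Interleukin 1 alpha and beta are ligands of a shared receptor, Il1r1, which signals with its accessory chain Il1rap through Myd88 and Irak kinases to NF-kB. The receptor antagonist Il1rn occupies the same receptor without a signal. Tnf acts through Tnfrsf1a, which carries a death domain, and through Tnfrsf1b, which lacks it. In bone marrow, monocytes, macrophages and granulocytes are the best known sources of both cytokines, and stem and progenitor cells carry the receptors and respond with myeloid differentiation and survival programmes.

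Il1b and Tnf were the 2 members with every mutant value above every wild type value, with differences of 0.89 and 0.58 on the log2 scale, and neither passed the threshold over all genes. The receptor genes Il1r1, Il1rap, Tnfrsf1a and Tnfrsf1b and the cytokine gene Il18 read above the level taken for absent transcript in every array, and their genotypes overlapped. Il1a, Il1rn and Il6 read at the level of absent transcript. Il1b and Tnf also had means over the 8 arrays, 6.997 and 6.93, under the level taken for absent transcript. All values are log2 intensities as deposited, and all differences are mutant minus wild type, tested with limma with Benjamini-Hochberg adjustment over all genes at a threshold of 0.05. Of the 10 members, 0 passed, against 0.165% of all genes. At an unadjusted p under 0.05 there were 3, Il1b and Tnf higher and Tnfrsf1b lower, where 17.2% of all genes had such a p. At an adjusted threshold of 0.1, which 1.09% of all genes passed, Il1b and Tnf were called. The median difference of the 10 members was 0.04 and that of all genes 0.05.

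**Figure D1:**
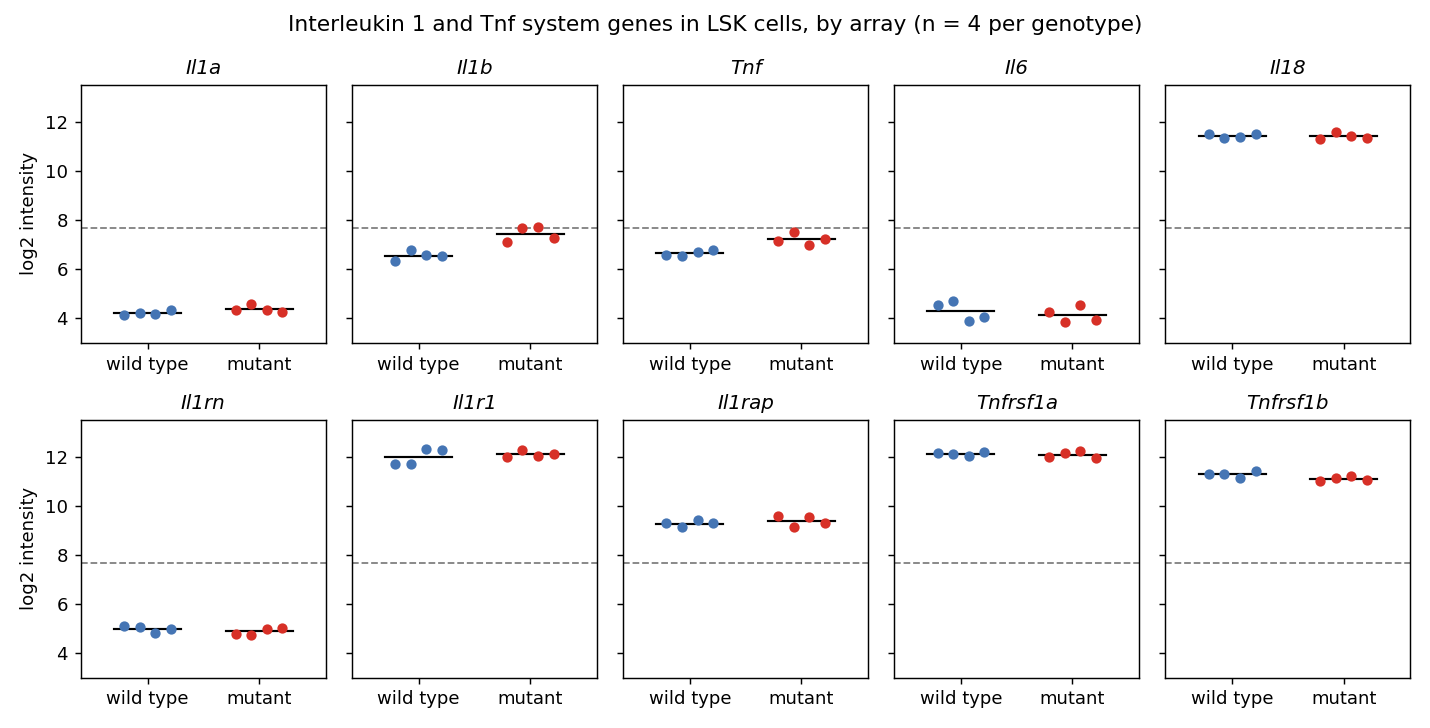
Log2 intensity of each of the 10 genes in the 4 wild type (blue) and 4 mutant (red) arrays, with black lines at the means and a dashed line at 7.67, the level taken for absent transcript. Il1b and Tnf separate by genotype below or near the dashed line, and the receptors and Il18 lie well above it with overlapping groups.

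The level taken for absent transcript, 7.67, was the 90th percentile of the means of 29 genes restricted to other tissues, such as pituitary hormones and lung surfactant. Their means had a median of 5.90, so this level is strict, and it differs from probe set to probe set. Means over the 8 arrays exceeded it for 5 members and for 57.3% of all genes. The LSK label was matched by its markers: Kit, Cd34, Flt3, Mecom, Hlf and Meis1 all had means of at least 10.81. Ly6a (Sca1) was not matched to a singly named probe set. Array medians were 7.14, 7.13, 7.15 and 7.12 in wild type and 7.08, 7.13, 7.06 and 7.08 in mutant arrays. Those of mutant arrays 1, 3 and 4 thus lay under every wild type array. Array pairs correlated at 0.991 to 0.996 across probe sets. Xist read 13.21 to 13.46 in wild type arrays 1 and 2 and mutant array 3, and 5.54 to 6.54 in the other 5, so female expression was unevenly spread over the genotypes. Jak2 itself read 12.63 ± 0.05 in wild type against 12.43 ± 0.16 (SD, n = 4 each) in the mutants. Whether its probe set tells the alleles apart was not tested, so this does not check the genotype.

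Il1b encodes the secreted agonist that is cut to its active form by caspase 1. Its log2 intensity was 6.31, 6.79, 6.57 and 6.53 in the wild type arrays and 7.12, 7.69, 7.71 and 7.25 in the mutant arrays. The groups did not overlap, with a gap of 0.33 between the highest wild type and the lowest mutant array, and mutant arrays 2 and 3 were the highest. The means were 6.55 ± 0.20 and 7.44 ± 0.30 (SD, n = 4 each), a difference of 0.89 ± 0.16 (SE; limma adjusted p = 0.0714, the rank of its p being 73 of 18193). Both means lay under the level taken for absent transcript, so no fold is given, and mutant arrays 2 and 3 lay just above it. The mean of 21 of the 29 tissue-restricted genes lay under the wild type mean of Il1b, and that of 25 under its mutant mean. One probe set, whose name ends in _a_at (shared between transcripts of a gene), read Il1b, so no other could be compared.

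Tnf, the secreted and membrane-bound trimeric ligand of both Tnf receptors, read 6.59, 6.52, 6.69 and 6.76 in wild type and 7.13, 7.53, 6.996 and 7.23 in mutant arrays. The groups again did not overlap, the gap being 0.23, and mutant array 2 was the highest. Means were 6.64 ± 0.11 and 7.22 ± 0.23 (SD, n = 4 each), a difference of 0.58 ± 0.12 (SE; limma adjusted p = 0.0914). All 8 arrays lay under the level taken for absent transcript, so no fold is given here either, and Tnf also had a single probe set. Of all genes, 6.82% had every mutant array above every wild type array, and 2 of the 10 members did.

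Signal level moved with the difference between genotypes. Among the 1182 genes with means from 6.5 to 7.5, where Il1b and Tnf lie, 70.3% had a difference above 0, the median was 0.13 and 10.7% had all mutant arrays higher. Among the 5784 genes with means of 11 or more, 51.4% lay above 0, and the median was 0.0038. Of the same 1182 genes, 22 had a difference at least as large as that of Il1b and 63 one at least as large as that of Tnf, with Il1b and Tnf themselves counted. Tissue-restricted genes lay above 0 in 23 of 29 cases, by a median of 0.13. The hormone genes Avp and Oxt, for example, were 0.42 ± 0.097 and 0.37 ± 0.087 (SE) higher in the mutant arrays, with limma adjusted p = 0.115 for both. The part of this drift in the differences of Il1b and Tnf was not tested.

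**Figure D2:**
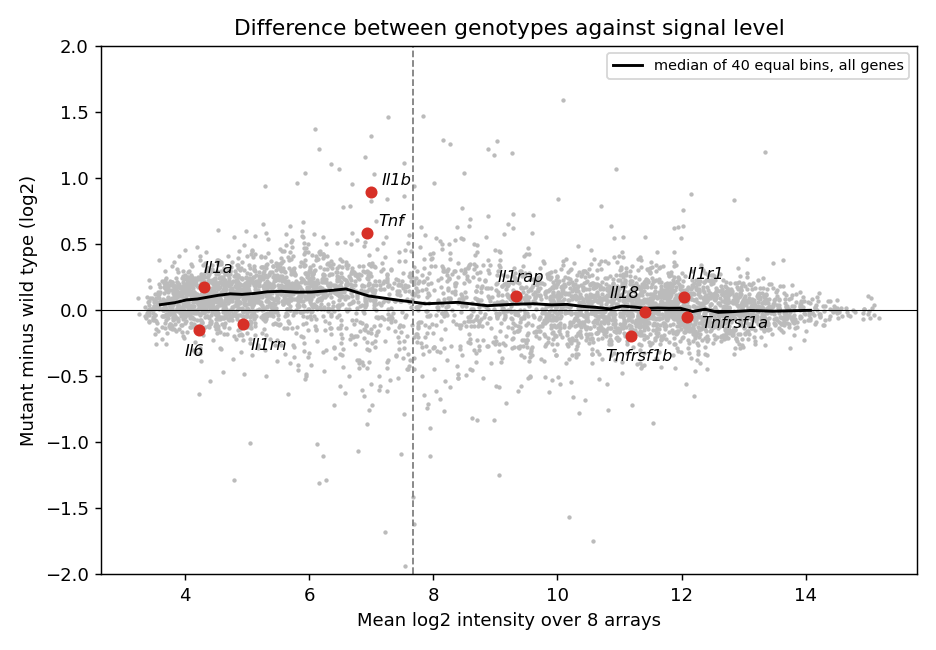
Difference between genotypes (log2, vertical) against mean log2 intensity over 8 arrays (horizontal) for every 4th gene (grey), the median of all genes in 40 equal bins (black line) and the 10 members (red). Il1b and Tnf lie above the median line, which is itself above 0 at low signal; the dashed line marks 7.67, and 2 grey points beyond the axis limits of 2 are not drawn.

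The promoters of both cytokine genes are shown because these 2 members separated the genotypes. They are the 250 bases before the RefSeq start in assembly GRCm38.p6, with matches to 4 searched motifs in capitals. Il1b lies on the minus strand of chromosome 2, and its window is chr2:129371140-129371389. Tnf lies on the minus strand of chromosome 17 (chr17:35202008-35202257). Il6, on the plus strand of chromosome 5 (chr5:30012864-30013113), is set beside them as a further cytokine gene. It read at the level of absent transcript, so its lack of separation makes no contrast with Il1b and Tnf. A link between promoter letters and the differences between genotypes was not tested.
Il1b: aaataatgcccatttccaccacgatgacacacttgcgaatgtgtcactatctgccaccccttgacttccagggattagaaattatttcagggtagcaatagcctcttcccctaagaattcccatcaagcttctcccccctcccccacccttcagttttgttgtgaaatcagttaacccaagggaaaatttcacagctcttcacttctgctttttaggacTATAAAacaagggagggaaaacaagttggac
Tnf: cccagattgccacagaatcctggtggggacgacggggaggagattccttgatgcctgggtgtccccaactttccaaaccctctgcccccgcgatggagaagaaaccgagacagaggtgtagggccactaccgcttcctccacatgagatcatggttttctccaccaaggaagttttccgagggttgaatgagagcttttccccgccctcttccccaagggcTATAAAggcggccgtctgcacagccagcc
Il6: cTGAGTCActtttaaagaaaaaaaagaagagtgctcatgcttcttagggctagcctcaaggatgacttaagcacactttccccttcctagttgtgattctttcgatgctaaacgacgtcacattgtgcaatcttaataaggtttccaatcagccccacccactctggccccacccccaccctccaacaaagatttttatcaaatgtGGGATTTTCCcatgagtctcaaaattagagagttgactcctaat
The TATA box was searched as TATAAA. For AP-1 the letters were TGANTCA and for Stat TTCNNNGAA, with the NF-kB consensus as the last motif, all on both strands. Il1b and Tnf each held 1 match, to TATAAA, on the gene's strand, starting 31 bases before the start of Il1b and 29 before that of Tnf. Il1a, whose groups overlapped, held the same letters 32 bases before its start. Within the last 50 bases before the start, on the gene's strand, TATAAA stood in 2.63% of 32841 promoters. None of the 4 receptor genes held TATAAA in its windows, and Il18 held it on the other strand, starting 175 bases before the start. The Il6 window held AP-1 and NF-kB matches, TGAGTCA and GGGATTTTCC. AP-1 letters also stood in Il1a and in 1 of 3 Il1rn windows. Tnfrsf1a (TTCCGTGAA) and Tnfrsf1b (TTCCCGGAA) held a Stat match, as did 7.02% of all promoters, and 1 of 2 Il1r1 windows held an NF-kB match, as did 7.25%. AP-1 letters stood in 6.75% and TATAAA on either strand in 12.4%. A match is a run of letters and not a site shown to be bound.

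Il1a, the membrane-associated agonist, read 4.14, 4.22, 4.16 and 4.32 in wild type and 4.36, 4.59, 4.35 and 4.24 in mutant arrays. The groups overlapped, as mutant array 4 lay under wild type array 4. Its difference was 0.17 ± 0.089 (SE; limma adjusted p = 0.348), far under the level taken for absent transcript. Il1rn, the antagonist, read 5.10, 5.05, 4.83 and 4.99 against 4.78, 4.74, 4.99 and 5.02, a difference of -0.11 ± 0.095 (SE; limma adjusted p = 0.562). Its other probe sets differed by 0.13 and 0.05, in the opposite direction, and all 3 lay under that level.

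Il6, a cytokine of the acute phase that signals through Il6ra and Il6st, read 4.55, 4.71, 3.88 and 4.07 in wild type and 4.25, 3.87, 4.56 and 3.92 in mutant arrays. The 3 highest were wild type arrays 1 and 2 and mutant array 3, which are also the arrays with high Xist. The difference of -0.15 ± 0.21 (SE; limma adjusted p = 0.722) was -0.03 with Xist as a covariate. Il18, an interleukin 1 family cytokine also cut by caspase 1, was by contrast clearly expressed. It read 11.51, 11.33, 11.37 and 11.49 in wild type and 11.30, 11.57, 11.42 and 11.34 in mutant arrays. Groups overlapped throughout, and the difference was -0.01 ± 0.083 (SE; limma adjusted p = 0.943), a ratio of 0.990 with a 95% interval from 0.870 to 1.13.

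Il1r1, the signalling receptor, read 11.70, 11.71, 12.29 and 12.28 in wild type and 11.99, 12.28, 12.005 and 12.09 in mutant arrays. Wild type arrays fell into 2 low and 2 high values, and all mutant arrays lay within their range. The low ones, arrays 1 and 2, were those with high Xist. The difference was 0.10 ± 0.16 (SE; limma adjusted p = 0.762), a ratio of 1.07 with a 95% interval from 0.837 to 1.37, and it was 0.01 with Xist as a covariate. A further Il1r1 probe set, at a mean of 3.60, gave no usable signal.

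Il1rap, the accessory chain shared by several receptors of the family, read 9.28, 9.12, 9.41 and 9.28 in wild type and 9.57, 9.11, 9.55 and 9.29 in mutant arrays. Mutant arrays 1 and 3 were above all wild type arrays and mutant array 2 below all of them. The difference was 0.11 ± 0.12 (SE; limma adjusted p = 0.647), with a 95% interval of the ratio from 0.896 to 1.29. The mean of 28 of the 29 tissue-restricted genes lay under its wild type and mutant means, with Pmch above them (9.68 in wild type and 9.92 in mutant arrays). The 4 other Il1rap probe sets all had means under 7.67 and differed by -0.17 to 0.09.

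Tnfrsf1a, the death domain receptor, read 12.16, 12.12, 12.03 and 12.18 in wild type and 11.96, 12.14, 12.23 and 11.93 in mutant arrays. The mutant arrays spread on both sides of the wild type arrays. The difference was -0.06 ± 0.085 (SE; limma adjusted p = 0.752), with a 95% interval of the ratio from 0.842 to 1.10. Tnfrsf1b, the receptor without a death domain, read 11.30, 11.29, 11.14 and 11.40 against 10.995, 11.12, 11.21 and 11.03. In 3 of 4 mutant arrays it lay under all wild type arrays, and mutant array 3 lay among them. The difference was -0.19 ± 0.081 (SE; limma adjusted p = 0.271), a ratio of 0.874 with a 95% interval from 0.770 to 0.992. Its further probe set, at a mean of 7.02, differed by 0.25, in the other direction. With both probe sets averaged the difference was 0.03.

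**Figure D3:**
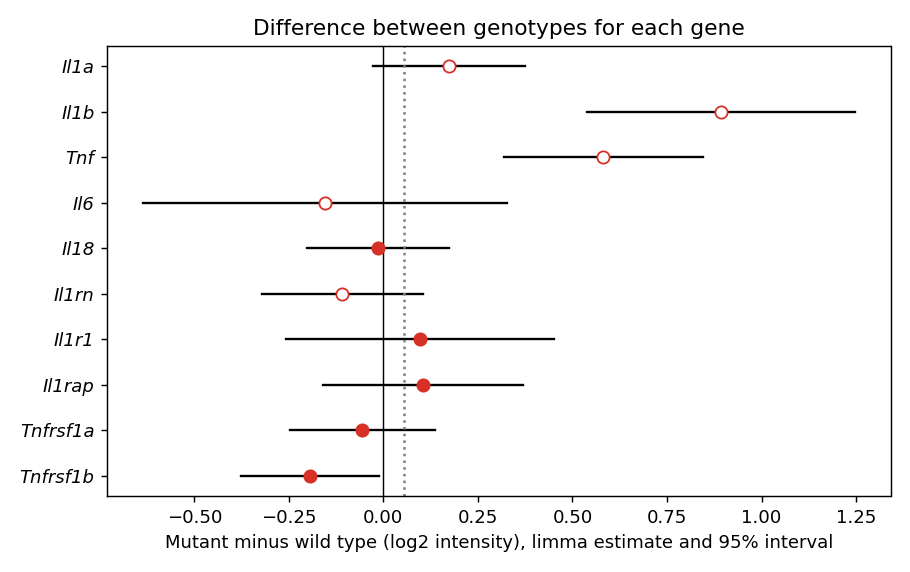
Difference between genotypes in log2 intensity (horizontal) with its 95% interval (lines) from limma for each of the 10 genes; filled points are genes with a mean above 7.67, open points those below, and the dotted line is the median of all genes, 0.05. The intervals of Il1b and Tnf lie wholly above 0 and that of Tnfrsf1b wholly below it, none of which passed adjustment over all genes.

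Other genes of the interleukin 1 family pathway lay on both sides of 0. Of 17 listed, 15 were measured, 8 above and 7 below 0, with a median of 0.02, where 11396 of 18193 genes lay above 0. Of the 15, 0 were called by limma, against 0.165% of all genes. An unadjusted p under 0.05 was found for 0 of the 15, against 17.2% of all genes. Those with the smallest p were Casp1, the protease that matures Il1b and Il18 (12.28 and 12.51, difference 0.23 ± 0.10, SE), and Il18bp, a soluble inhibitor of Il18 (0.19 ± 0.092). The receptor kinase gene Irak1 (-0.13 ± 0.074) and the inhibitory receptor gene Sigirr (0.14 ± 0.099) followed. Limma adjusted p ranged from 0.293 to 0.474 over these 4. The means of Il1r2, Il33 and Nlrp3 over the 8 arrays were under 7.67.

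Among 16 measured genes of the Tnf pathway, 9 lay above and 7 below 0, with a median of 0.02, where 11396 of 18193 genes lay above 0. Of the 16, 0 were called by limma, against 0.165% of all genes. An unadjusted p under 0.05 was found for 4 of the 16, and for 17.2% of all genes. The kinase adaptor gene Tab1 (0.48 ± 0.17, SE), the apoptotic protease gene Casp8 (0.22 ± 0.081) and the kinase gene Map3k7 (0.18 ± 0.075) lay higher. Cflar, which encodes the inhibitor of caspase 8 c-Flip, lay lower (-0.22 ± 0.094). Casp8 read 12.39, 12.36, 12.45 and 12.55 in wild type and 12.56, 12.55, 12.74 and 12.77 in mutant arrays. Its groups did not overlap, with all mutant arrays higher as in 6.82% of all genes, and its limma adjusted p was 0.231. Cflar read 12.26, 12.07, 12.22 and 12.11 against 11.84, 12.04, 12.12 and 11.77, with overlap through mutant array 3 (limma adjusted p = 0.280). For the Il6 family, 5 of 6 genes lay above 0, with a median of 0.19. Osm, a related cytokine, differed by 0.26 ± 0.14, the shared receptor gene Il6st by 0.11 ± 0.077, the feedback inhibitor gene Socs3 by 0.31 ± 0.25 and Stat3 by -0.11 ± 0.098 (SE; limma adjusted p from 0.362 to 0.585).

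Genes known to be induced by interleukin 1 and Tnf were read as a list of 22 measured genes. Of these, 18 had a difference above 0 and 4 below, with a median of 0.25, where 11396 of 18193 genes lay above 0. The 4 below were Tnfaip3 (-0.21 ± 0.13), Icam1 (-0.17 ± 0.082), Nfkbia (-0.04 ± 0.10) and Nfkbiz (-0.03 ± 0.28, SE), all with means above 7.67. None of the 22 was called by limma, against 0.165% of all genes. An unadjusted p under 0.05 was found for 6, all higher, as for 11.9% of all genes in that direction. In 3 of the 22 the lowest mutant array exceeded the highest wild type array, as in 6.82% of all genes. The list mean was 9.52, 8.90, 9.14 and 9.29 in wild type and 9.42, 9.92, 9.49 and 9.36 in mutant arrays. The genotypes thus overlapped, with wild type array 1 above mutant arrays 1, 3 and 4. Like the immediate early list below, it was lowest in wild type array 2 and highest in mutant array 2. Ccl2, a monocyte chemokine, read 6.39, 6.10, 6.13 and 6.10 in wild type and 6.66, 6.62, 6.73 and 6.65 in mutant arrays. Those values do not overlap between genotypes and lie under 7.67 in both, and the difference of the means was 0.48 ± 0.083 (SE; limma adjusted p = 0.0652). Tnfaip2, a Tnf-induced gene, was well expressed, at 12.10, 12.04, 11.99 and 11.69 against 12.17, 12.30, 12.67 and 12.38, a difference of 0.43 ± 0.13 (SE; limma adjusted p = 0.185). The neutrophil chemokine gene Cxcl2 read 6.62, 5.06, 5.65 and 6.61 against 7.21, 8.39, 6.66 and 6.63. Its difference was 1.24 ± 0.46 (SE; limma adjusted p = 0.236), with wild type array 2 lowest and mutant array 2 highest. The wild type and mutant means of Cxcl2, 5.98 and 7.22, lay under 7.67. Junb, an AP-1 subunit gene, differed by 0.81 ± 0.30 (SE; limma adjusted p = 0.233) and was highest in mutant array 2, at 9.66.

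Immediate early and heat shock genes, which respond within minutes to cell handling, also lay on the mutant side. All 13 measured lay above 0, by a median of 0.74, where 11396 of all 18193 genes lay above 0. Of the 13, 0 were called by limma, against 0.165% of all genes. An unadjusted p under 0.05 was found for 1 of the 13, and for 17.2% of all genes. Those with the smallest p were Ier2 (0.78 ± 0.33), Btg2 (0.74 ± 0.33), Klf2 (1.19 ± 0.59) and Egr1 (0.83 ± 0.44, SE; limma adjusted p from 0.273 to 0.354). The list mean was 10.43, 8.93, 10.17 and 10.70 in wild type and 10.99, 11.66, 9.58 and 10.86 in mutant arrays. It was thus lowest in wild type array 2 and highest in mutant array 2, in which Tnf was also lowest and highest. Mutant array 3, with the lowest list mean of the mutants, had the highest Il1b and the lowest Tnf among them. The part of handling in these differences was not tested.

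In bulk samples, fewer cells of a type and less RNA per cell cannot be told apart, and this holds for markers of other cells. Macrophage and monocyte markers lay above 0 for 11 of 12 genes, by a median of 0.50, where 11396 of all 18193 genes lay above 0. The summed intensity of these markers, as log2, was 14.34 to 14.65 in wild type and 14.43 to 14.98 in mutant arrays. Lyz2, with means of 13.97 and 14.01 (difference 0.04 ± 0.094, SE), made up the largest part of that sum. Cd68 (0.44 ± 0.12, SE; limma adjusted p = 0.141) and Adgre1 (0.62 ± 0.23; limma adjusted p = 0.232) lay higher in every mutant array than in any wild type array. So did 6.82% of all genes. Cd14, a co-receptor gene for bacterial lipopolysaccharide, was the member below 0 and had the largest difference in size. It read 8.76, 6.60, 7.87 and 8.58 in wild type and 6.67, 6.97, 7.30 and 6.89 in mutant arrays, a difference of -0.99 ± 0.42 (SE; limma adjusted p = 0.273). Means over all 8 arrays were under 7.67 for Adgre1, Cd14, Mrc1, Cx3cr1, Fcgr1, C1qa and C1qc, and Cd14, Mrc1 and Cx3cr1 exceeded it in single arrays.

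Neutrophil markers lay above 0 for 9 of 10 genes, by a median of 0.79, with summed levels of 14.86 to 15.80 and 15.37 to 16.26. The granule protease genes Mmp8 and Mmp9 had the smallest p. Mmp8 read 6.76, 6.52, 7.26 and 6.79 in wild type and 7.97, 8.80, 7.175 and 8.76 in mutant arrays, a difference of 1.35 ± 0.34 (SE; limma adjusted p = 0.137). Mmp9 differed by 1.78 ± 0.54 (SE; limma adjusted p = 0.187), at 8.46, 8.63, 6.57 and 9.41 in the mutant arrays. Both passed 7.67 in mutant arrays 1, 2 and 4 and in no wild type array. By contrast S100a8, S100a9, Ltf, Camp, Ngp, Lcn2 and Csf3r read above 7.67 in every array of both genotypes. S100a9 had means of 14.18 in wild type and 14.62 in mutant arrays (difference 0.43 ± 0.20, SE). Csf3r was the gene below 0 (-0.07 ± 0.10, SE). Cxcr2 was under 7.67 in all arrays. Granulocyte and monocyte progenitor genes (Mpo, Elane, Prtn3 and Ctsg) had a median of 0.10, with 3 of 4 above 0 and summed levels of 15.72 to 16.11 and 15.82 to 16.27. Class II and dendritic cell genes lay above 0 for 8 of 8, by a median of 0.67, with summed levels of 12.92 to 14.25 and 14.19 to 14.72. H2-Ab1 was higher in every mutant array than in any wild type array (0.50 ± 0.11, SE; limma adjusted p = 0.114), as were 6.82% of all genes. Siglech, Cd209a and Xcr1 read under 7.67 in all arrays. Mast cell and basophil genes lay above 0 for 4 of 5, by a median of 0.44, with summed levels of 11.90 to 12.55 and 12.52 to 12.79. Means over all arrays were under 7.67 for Fcer1a and Tpsb2, with Fcer1a above it in 4 of 8 arrays. B cell markers had a median of 0.0019 (3 of 5 above 0, summed levels of 12.69 to 13.11 and 12.84 to 13.37; Cd79a, Ms4a1 and Pax5 under 7.67 in all arrays). T and NK cell markers had one of 0.29 (5 of 6 above 0, summed levels of 13.22 to 13.54 and 13.37 to 13.57). Cd3d, Cd3e, Cd3g, Ncr1 and Gzma read under 7.67 in all arrays. The T and NK sum was thus mostly Nkg7, with means of 13.34 in wild type and 13.41 in mutant arrays (difference 0.06 ± 0.088, SE). LSK markers lay below 0 for 5 of 6, by a median of -0.11, with summed levels of 15.55 to 15.66 and 15.39 to 15.59. Mecom (-0.34 ± 0.094) and Cd34 (-0.12 ± 0.060, SE; limma adjusted p = 0.154 and 0.350) were lower in every mutant array than in any wild type array, as were 3.33% of all genes. No gene of these lists was called by limma, against 0.165% of all genes. Their part in the differences of Il1b and Tnf was not tested.

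Genes most like Il1b and Tnf over the 8 arrays were found by the root mean square distance between log2 intensities, each gene centred on its own mean. The candidates were 10969 genes with a mean of at least 7.11, the median of the probe set means. This measure includes the difference between genotypes and the pattern within each genotype. The genes it finds therefore differ between genotypes too, and tend to peak in the same arrays, by selection. For Il1b the 5 nearest were Aif1 (a distance of 0.17), Cxcr3 (0.18), Ccdc180 (0.19), Ms4a6d (0.20) and 8430426J06Rik (0.21). Aif1, a calcium-binding protein of macrophages and microglia, read 7.35, 7.38, 7.46 and 7.13 in wild type and 7.86, 8.64, 8.52 and 7.78 in mutant arrays. Like Il1b it was highest in mutant arrays 2 and 3, and its difference was 0.87 ± 0.20 (SE; limma adjusted p = 0.111). Ms4a6d, a membrane protein gene of myeloid cells, differed by 0.87 ± 0.24 (limma adjusted p = 0.159). Cxcr3, a chemokine receptor gene, differed by 0.76 ± 0.10 (limma adjusted p = 0.0303) and Ccdc180 by 0.76 ± 0.11 (limma adjusted p = 0.0490). The wild type means of all 5 genes lay under 7.67, the level taken for absent transcript, from 6.91 for Cxcr3 to 7.34 for Ccdc180.

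For Tnf the nearest were Cpa3 (0.11), D730005E14Rik, Smpd5 and C230035I16Rik (0.12 each) and Lag3 (0.14). Cpa3, the carboxypeptidase of mast cells and their progenitors, read 10.80, 10.75, 10.84 and 10.75 in wild type and 11.25, 11.68, 11.25 and 11.17 in mutant arrays. Mutant array 2 was highest for both, and Cpa3 differed by 0.55 ± 0.11 (SE; limma adjusted p = 0.0909). Lag3, an inhibitory receptor gene of lymphocytes, differed by 0.56 ± 0.14 (limma adjusted p = 0.136). Among the genes nearest to Tnf, D730005E14Rik alone had a wild type mean under 7.67, at 7.04. Il1b and Tnf, both with means under 7.11 and so not candidates themselves, were 0.30 apart. At that distance Tnf would rank 71 from Il1b among the 10969 candidates, and Il1b would rank 2400 from Tnf. In mutant array 3 Il1b was the highest and Tnf the lowest of the mutant values.

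**Figure D4:**
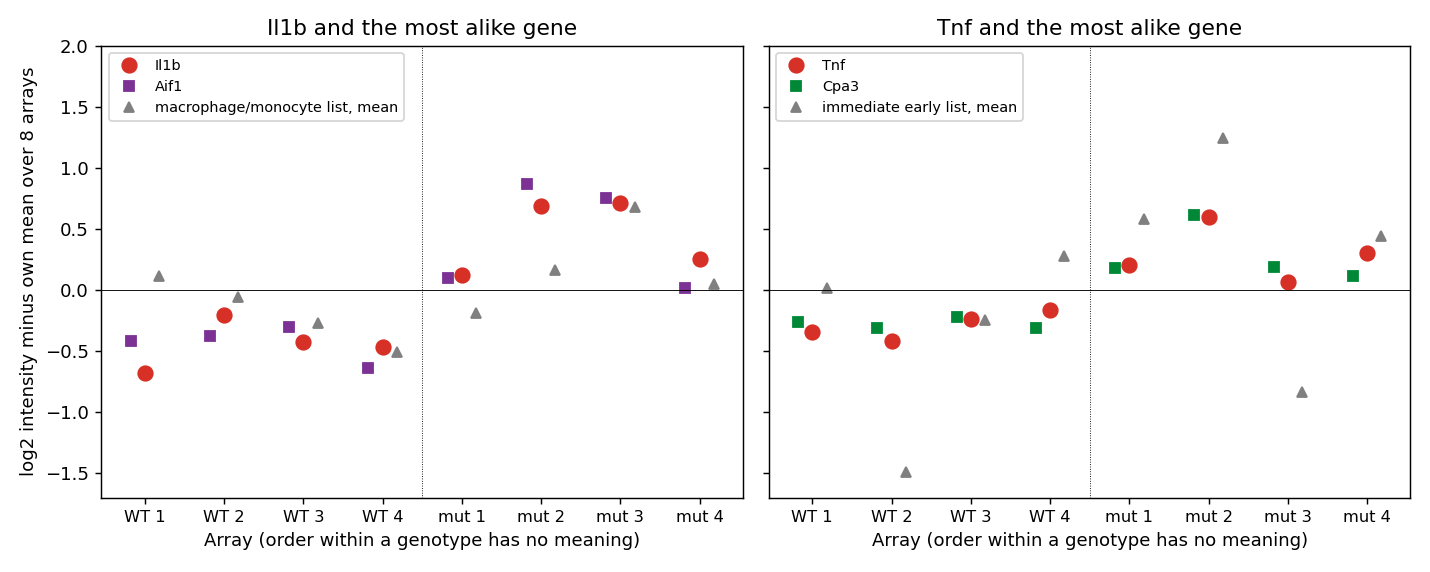
Log2 intensity minus each series' own mean over 8 arrays, by array, for Il1b, Aif1 and the mean of the macrophage and monocyte list (left) and for Tnf, Cpa3 and the mean of the immediate early and heat shock list (right). Il1b and Aif1 peak in mutant arrays 2 and 3, and Tnf and Cpa3 in mutant array 2, where the immediate early list is also highest. Aif1 and Cpa3 were selected for their likeness to Il1b and Tnf over these same arrays.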

How the data were processed

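RNA of sorted LSK cells was amplified with a NuGEN kit, labelled with biotin and hybridised, per the labels' protocols. The authors deposited log2 intensities for each mouse, computed with RMA in affy under R 2.11.0, per the submitters' processing notes. RMA corrects background, makes array distributions equal and summarises probes. That the scale is log2 follows from the range of values. Chip definition: not given in the sources used here. Scanner files and array batches are not used here. Equal distributions would hide a shift common to most genes.

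Of 45101 probe sets, 64 controls were left out, and the platform annotation named 34945 singly. Each of 18193 genes was read by its brightest probe set. Genotypes (4 mice each) were compared with limma 3.58.1 in R 4.3.3 without covariates, two-sided. The number of arrays limits the precision, and intervals are 95% and unadjusted. The same script was tested on simulated data. Promoters were those of RefSeq GRCm38.p6, found for all 10 members.

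The members, lists and tests were chosen with earlier results of these data known. The text names all members, 4 genes of each pathway list by smallest p, and the 5 genes most like Il1b and Tnf. Avp, Oxt, the 4 induced genes below 0, the cell type markers given with values, the signal ranges and the TATA box were added once values had been seen. Alternatives tried: the replicate block, centring, filters on dim genes, probe set choices, a trended robust prior, array weights, Xist as a covariate, each array left out, and a threshold of 0.1.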

Additional observations from a re-analysis of the deposited data

How the results depend on the processing

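Il1b stayed above 0 under all 15 alternatives that gave it a value, from 0.80 to 0.9996, with limma adjusted p from 0.0445 to 0.170. It passed with a trended robust prior alone (0.89, adjusted p = 0.0445), which made the members called 1, and 2 members, Il1b and Tnf, passed at a threshold of 0.1. Tnf stayed above 0 under 16, from 0.48 to 0.66 (limma adjusted p from 0.0526 to 0.214). With Xist as a covariate Il1b was 0.92 and Tnf 0.53. Without single arrays the ranges were 0.80 to 0.9996 for Il1b and 0.48 to 0.66 for Tnf. Both filters on dim genes removed Il1b and Tnf, and leaving out shared probe sets removed Il1b, so these gave them no value. Il18 was 0.030 after median centring. With probe sets averaged, dim ones included, Il1rn was 0.024, Il1r1 -0.021 and Tnfrsf1b 0.026. Without single arrays Il1r1 ranged from -7.5e-05 to 0.20 and Il18 from -0.069 to 0.022. None of these was called.

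Genes called numbered 30 (19 higher, 11 lower), 47 after median centring (37 and 10), 49 with probe sets averaged, 60 over singly named probe sets, 75 with a trended robust prior, 63 with Xist as a covariate and 199 at a threshold of 0.1. Without single arrays they numbered 13 to 40: omitting wild type array 2 gave 13 and array 3 gave 16, while omitting mutant array 1 gave 19, array 2 gave 16 and array 4 gave 14. Replicate numbers did not pair the mice (correlations of deviations from -0.221 to 0.103, with arrays of number 4 alone best matched to each other). With the replicate block 8 genes were called, Il1b had a limma adjusted p of 0.0783 and Tnf 0.193. Median centring moved the median difference of all genes from 0.05 to 0.10.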
